A study of Mus musculus with 8 samples.

Results

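The interferon-inducible GTPases are described here by 10 mouse genes, 4 guanylate-binding proteins (Gbp2, Gbp3, Gbp6 and Gbp7) and 6 immunity-related GTPases (Igtp, Irgm1, Irgm2, Iigp1, Tgtp1 and Tgtp2). They were chosen by gene name, as members of these families, from 55487 named rows of a table of estimated counts, and all 10 were found there. RNA was sequenced from ileal crypt cells of C57BL/6 mice that received CPT-11 (irinotecan, which the body converts to an inhibitor of topoisomerase I) at 20 mg/kg for 7 days, or vehicle, with 4 libraries in each group. The sources used here give no ages for the animals. Crypts, the pits between the villi where stem cells divide and Paneth cells sit, were released with EDTA and dispersed with trypsin without a sort, so other mucosal cells can be present. Whether each library is a separate mouse is not stated, so a p-value here weighs only library-to-library spread, part of which may be technical. Library totals were 20790164 to 23479121 estimated counts. CPT-11 replicate 2 stood somewhat apart, with a Spearman rho across genes of 0.931 to 0.962 against the other CPT-11 libraries, while the 4 vehicle libraries agreed at 0.987 to 0.99. The study concerns chemotherapy and the AIM2 inflammasome in the ileal mucosa, and the contrast asks how the drug changed crypt gene expression.

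As background, both families are dynamin-like GTPases that cells make in quantity when interferon, above all interferon gamma, reaches them. Guanylate-binding proteins assemble on bacteria and on the vacuoles of parasites, and in mouse macrophages they help to expose bacterial lipopolysaccharide and DNA to caspase-11 and AIM2. Immunity-related GTPases fall into effectors, which load onto the pathogen's vacuole, and regulators of the Irgm class, which sit on the cell's own membranes and hold the effectors inactive there. Transcription of both families is driven through gamma-activated sites (GAS) and through interferon-stimulated response elements (ISRE), which IRF proteins and ISGF3 bind.

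Because those elements are what links the genes to interferon, the 300-base window around each start (250 bases before it and 50 after, RefSeq, GRCm38.p6) was searched on both strands for the ISRE letters GAAANNGAAA and the GAS letters TTCNNNGAA. The table used held 9 windows for 8 of the 10 members, 2 of them for Gbp3, and none for Gbp6 and Iigp1. The ISRE letters were present in 8 of these 9 windows and the GAS letters in 5. The second window of Gbp3, at a later start, held neither, so each of the 8 members had an ISRE match in 1 window. Among all 32544 windows, 3.45% held the ISRE letters, 8.33% the GAS letters and 0.455% both. The 150 bases before the start are shown for the 2 members with the highest counts in their families that lack a GAS match, Gbp2 and Irgm1, and for the 4 whose matches share one arrangement, with both kinds of match in capitals and everything else in lower case. Gbp2 lies at chr3:142620513-142620662 on the plus strand, Irgm1 at chr11:48871421-48871570 on the minus strand, Igtp at chr11:58199406-58199555 and Irgm2 at chr11:58214827-58214976 on the plus strand, and Tgtp1 at chr11:48992247-48992396 and Tgtp2 at chr11:49064213-49064362 on the minus strand. Each sequence is written 5′ to 3′ on its gene's strand. The starts are those of RefSeq, and GENCODE begins Gbp2, Irgm1, Irgm2 and Tgtp1 further upstream. The GENCODE span of the gene thus covers the whole printed sequence for Irgm1, Irgm2 and Tgtp1 and part of it for Gbp2.
Gbp2: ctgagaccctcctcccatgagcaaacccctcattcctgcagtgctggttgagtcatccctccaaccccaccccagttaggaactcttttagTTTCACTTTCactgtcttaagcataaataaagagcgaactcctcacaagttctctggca
Irgm1: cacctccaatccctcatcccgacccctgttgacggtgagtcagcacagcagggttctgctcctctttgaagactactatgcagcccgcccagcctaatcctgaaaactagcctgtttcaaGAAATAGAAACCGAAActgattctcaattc
Igtp: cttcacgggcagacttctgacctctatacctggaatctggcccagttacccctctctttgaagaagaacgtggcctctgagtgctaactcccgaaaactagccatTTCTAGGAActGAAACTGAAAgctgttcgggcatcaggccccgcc
Irgm2: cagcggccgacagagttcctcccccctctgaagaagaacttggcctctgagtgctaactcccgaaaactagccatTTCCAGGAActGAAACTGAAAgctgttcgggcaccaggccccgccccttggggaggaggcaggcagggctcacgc
Tgtp1: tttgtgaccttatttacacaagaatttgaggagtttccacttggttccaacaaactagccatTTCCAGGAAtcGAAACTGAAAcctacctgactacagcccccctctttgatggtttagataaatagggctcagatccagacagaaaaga
Tgtp2: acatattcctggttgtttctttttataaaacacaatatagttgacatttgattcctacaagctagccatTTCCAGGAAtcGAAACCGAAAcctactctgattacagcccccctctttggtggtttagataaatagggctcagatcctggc

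In Igtp, Irgm2, Tgtp1 and Tgtp2 exactly 2 bases separated the GAS letters from the ISRE letters after them. That combined arrangement (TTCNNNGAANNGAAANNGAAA) occurred in only 5 of the 32544 windows, 0.0154%, and the fifth belonged to Gm12185, a predicted gene beside the Tgtp cluster. These promoters are related copies, with 90.4% identity over 270 aligned bases for Igtp and Irgm2 and 85.4% over 192 for Tgtp1 and Tgtp2, so the 4 are not independent examples. Irgm1 carried 2 overlapping ISRE matches in tandem, at -30 to -21 and -24 to -15, and Gbp3 also had 2 overlapping ones, at -45 to -36 and -39 to -30, on the opposite strand. Gbp2 had 1 ISRE match at -59 to -50 on the opposite strand. Gbp7 was the one member among the guanylate-binding proteins with GAS letters, at -106 to -98 and -87 to -79, ahead of an ISRE match at -53 to -44 on the opposite strand. These are matches of letters in a fixed window and show neither binding nor use.

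**Figure D1:**
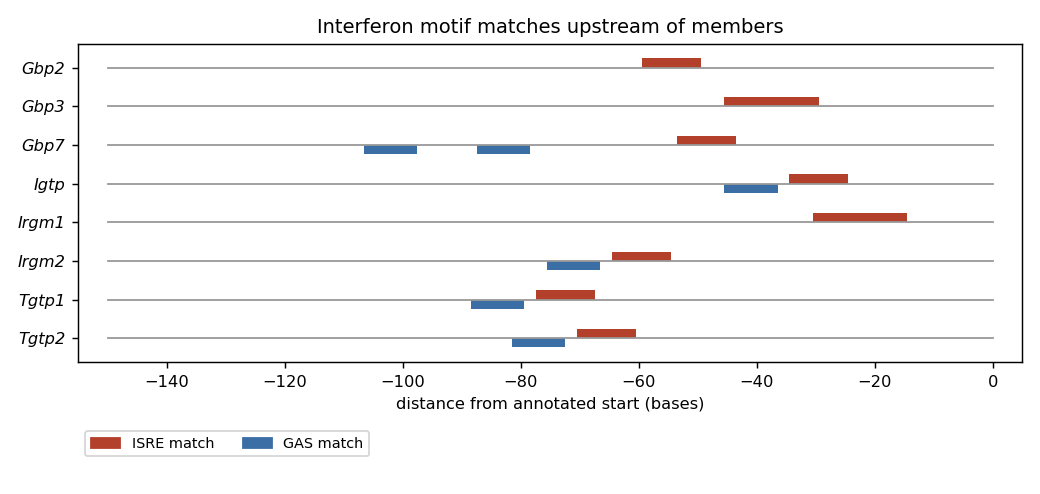
Positions of the ISRE letters (red) and GAS letters (blue) in the 150 bases before an annotated start of the 8 members with a promoter window (for Gbp3 the earlier of 2 starts); the horizontal axis is the distance from the start in bases. Igtp, Irgm2, Tgtp1 and Tgtp2 share a GAS match separated by 2 bases from the ISRE match after it, and all the matches lie within 106 bases of the start.

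Levels are given in CPM, counts divided by a library size scaled with the TMM method so that libraries can be compared. In the crypt preparations all 10 GTPases had a higher fitted level with CPT-11 than with vehicle, but none of the 10 differences passed the test. The log2 fold changes lay between 0.17 (Irgm1) and 1.21 (Gbp2) with a median of 0.53, beside a median of 0.014 over the 14011 genes tested, of which 51.3% were above 0. Of 10 tested relatives outside the list, 5 were above 0, with a median of 0.075, and the members were chosen with earlier results known. Those relatives are not the whole family. They leave out Ifi47, an immunity-related GTPase with a log2 fold change of 0.56 (SE 0.28, edgeR adjusted p = 0.246). With edgeR's quasi-likelihood test and Benjamini-Hochberg adjustment over all genes tested, 0 of the 10 had an adjusted p below 0.05, a background in which 5.50% of genes changed, 2.98% upward and 2.52% downward. At an unadjusted p below 0.05, 2 were higher (Gbp2 and Igtp; 13.4% of all genes were higher at that level), and DESeq2 and limma-voom each called 1, Gbp2 (7.47% and 2.95% of genes were called higher by these tools). The genes share regulators and, in part, reads, so they are not 10 independent observations. In these bulk preparations more cells that express a gene and more RNA per cell cannot be told apart.

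The vehicle libraries differed widely among themselves. Within vehicle the highest library exceeded the lowest by 1.97-fold for Irgm1 to 7.24-fold for Gbp6, and within CPT-11 by 1.2-fold for Irgm1 to 2.89-fold for Gbp3. Vehicle replicate 4 was the highest vehicle library for 9 members and vehicle replicate 2 the lowest for 8, and for 9 members vehicle replicate 4 stood above at least the lowest CPT-11 library. Without vehicle replicate 4 the median log2 fold change of the members was 0.95, and without vehicle replicate 2 it was 0.3. In every one of the 21 alternatives each member tested kept a fold change above 0.

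**Figure D2:**
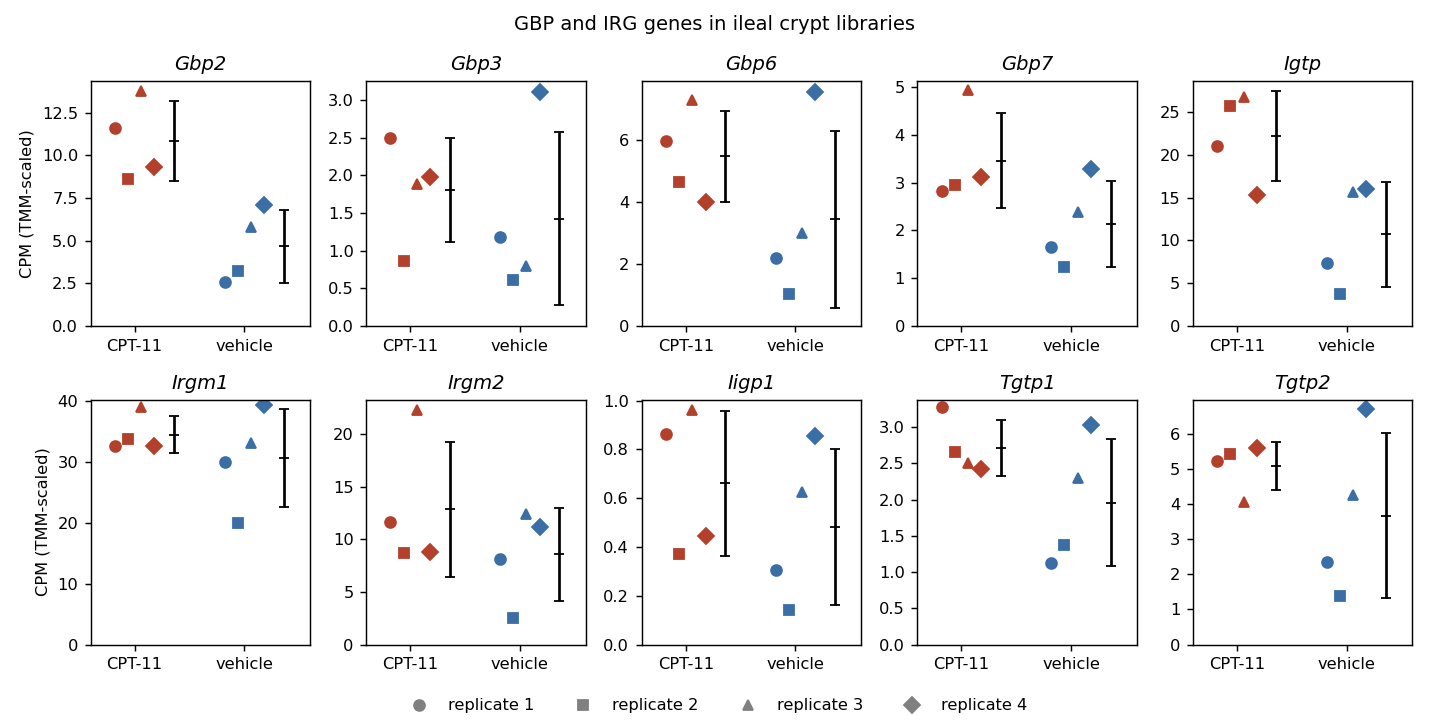
Level of each of the 10 members in every library, in TMM-scaled CPM (vertical axes from 0), with 4 CPT-11 libraries (red) left of 4 vehicle libraries (blue); marker shapes give replicate numbers, and bars are the mean ± SD. Gbp2 is the one gene whose groups do not overlap, and vehicle replicate 4 (diamond) is the highest vehicle library in 9 of the 10 panels.

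Gbp2, whose protein coats bacteria and parasite vacuoles, had the largest difference of the 10. It is a protein-coding gene at chr3:142620602-142638008 (GRCm38, GENCODE M21), as are all the members. It stood at 11.6, 8.63, 13.8 and 9.34 CPM in the CPT-11 libraries 1 to 4, against 2.57, 3.22, 5.8 and 7.12 CPM in the vehicle libraries 1 to 4. Every CPT-11 library was above every vehicle library, which held for this member alone and for 8.41% of all genes tested. The means were 10.9 ± 2.35 CPM with CPT-11 and 4.68 ± 2.14 CPM with vehicle (SD, n = 4 each), a 2.32-fold difference (log2 fold change 1.21, SE 0.32, edgeR adjusted p = 0.0558). Its call depended on the fit. Gbp2 passed without a filter on low counts (adjusted p = 0.0372), with limma-voom (0.0379), with DESeq2 (0.0045), and in edgeR without CPT-11 replicate 2 (0.0366) or without vehicle replicate 4 (0.0423), and over all 21 alternatives its adjusted p ranged up to 0.157. With the replicate number as a block it was 0.0473.

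The other guanylate-binding proteins were expressed at a lower level and their groups overlapped. Gbp7, which in mouse helps to assemble the phagocyte NADPH oxidase on vacuoles, lies beside Gbp2 and Gbp3 in the chromosome 3 cluster (chr3:142530342-142550149). It stood at 2.82, 2.96, 4.94 and 3.11 CPM with CPT-11, against 1.66, 1.23, 2.38 and 3.28 CPM with vehicle (log2 fold change 0.69, SE 0.33, edgeR adjusted p = 0.229). Only vehicle replicate 4 reached into the CPT-11 range. Gbp6, in the other cluster (chr5:105270702-105293698, minus strand), stood at 5.95, 4.63, 7.28 and 4.0 CPM with CPT-11, against 2.18, 1.04, 3.01 and 7.55 CPM with vehicle. For Gbp6 the highest of all 8 libraries was vehicle replicate 4, while the other vehicle libraries lay below every CPT-11 library (log2 fold change 0.66, SE 0.5, adjusted p = 0.422, and 1.39 without vehicle replicate 4). Gbp3, at chr3:142560026-142573209, averaged 1.81 ± 0.684 CPM with CPT-11 and 1.43 ± 1.15 CPM with vehicle (SD, n = 4 each). Its highest library, too, was vehicle replicate 4 at 3.11 CPM, and its fold change was the smallest of the guanylate-binding proteins (log2 0.35, SE 0.52, adjusted p = 0.704).

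Of the regulatory GTPases, Igtp (Irgm3, found on endoplasmic reticulum and lipid droplets) had the second largest difference in the family. Igtp lies at chr11:58199556-58207591. It stood at 21, 25.7, 26.8 and 15.3 CPM with CPT-11, against 7.41, 3.74, 15.7 and 16.0 CPM with vehicle. The groups overlapped through CPT-11 replicate 4, which was just below vehicle replicates 3 and 4. The means were 22.2 ± 5.22 CPM with CPT-11 and 10.7 ± 6.13 CPM with vehicle (SD, n = 4 each), 2.07-fold, with an unadjusted edgeR p of 0.0269 and an adjusted p of 0.151 (log2 fold change 1.05, SE 0.4). No alternative brought Igtp past the threshold, and its adjusted p ranged from 0.0665 to 0.331.

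Irgm2, a Golgi-bound regulator whose gene overlaps Igtp (chr11:58199618-58222782), stood at 11.6, 8.7, 22.3 and 8.75 CPM with CPT-11, against 8.15, 2.51, 12.4 and 11.2 CPM with vehicle. CPT-11 replicate 3 was well above the rest, and the remaining CPT-11 libraries lay within the vehicle range. The log2 fold change of 0.59 (SE 0.46, edgeR adjusted p = 0.44) was 0.17 without CPT-11 replicate 3. Irgm1, the regulator without which mice fail to control several bacteria and parasites, is on the same chromosome (chr11:48861968-48871683, minus strand) and differed least. Irgm1 had 32.6, 33.7, 39.0 and 32.7 CPM with CPT-11, against 30.0, 20.0, 33.2 and 39.3 CPM with vehicle (log2 fold change 0.17, SE 0.19, adjusted p = 0.593). Vehicle replicate 2 alone lay clearly below the other 7 libraries, and without it the log2 fold change of Irgm1 was 0.0044.

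In CPM, each effector GTPase among the members averaged below every regulatory one, while Gbp3 and Gbp7 averaged below Tgtp2. Tgtp1 and Tgtp2, 2 copies of the gene for Irgb6, an early loader of the Toxoplasma vacuole, lie at chr11:48985327-48994172 and chr11:49057194-49064206 (both on the minus strand). Tgtp1 averaged 2.71 ± 0.382 CPM with CPT-11 and 1.96 ± 0.872 CPM with vehicle, and Tgtp2 averaged 5.07 ± 0.693 CPM with CPT-11 and 3.67 ± 2.35 CPM with vehicle (SD, n = 4 each). Their log2 fold changes were 0.47 (SE 0.33, adjusted p = 0.387) and 0.46 (SE 0.41, adjusted p = 0.497). In both, vehicle replicates 1 and 2 were below every CPT-11 library and vehicle replicate 4 was not. Iigp1, which encodes Irga6, a pioneer effector on parasite vacuoles (chr18:60376027-60392634), was near the limit of detection. It had 19, 6, 23 and 9 counts with CPT-11, against 7, 3, 15 and 20 counts with vehicle (log2 fold change 0.46, SE 0.55, adjusted p = 0.62).

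**Figure D3:**
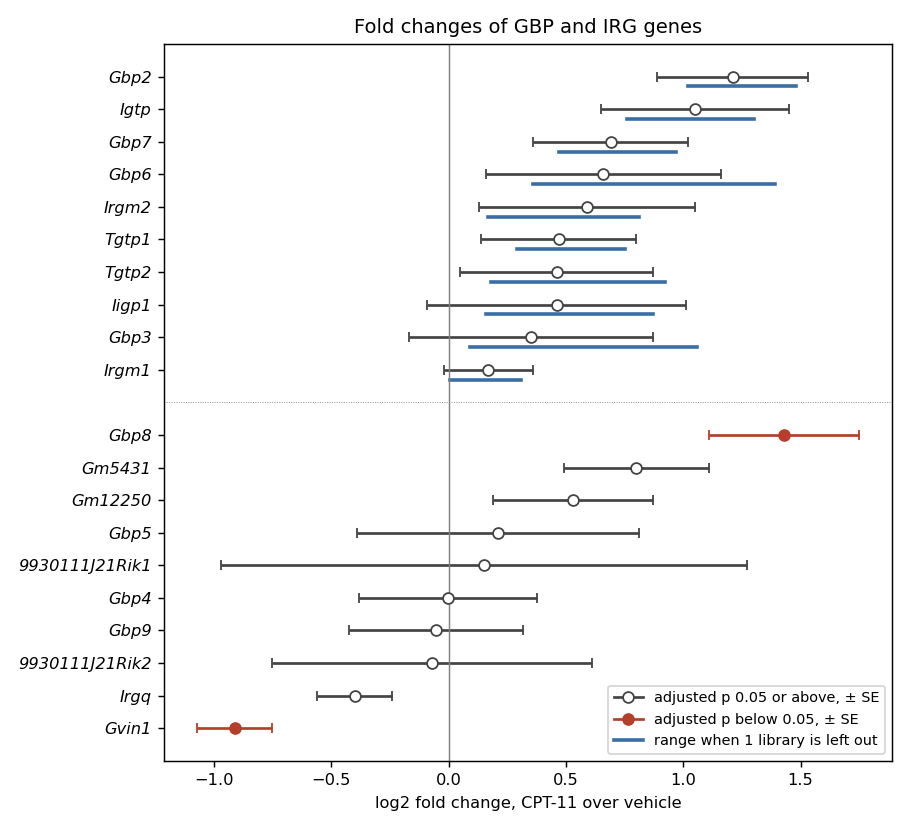
Log2 fold change of CPT-11 over vehicle (horizontal axis) with its standard error for the 10 members, above the dotted line, and 10 tested relatives outside the list (Ifi47 not among them), below it; filled points have an adjusted p below 0.05, and blue bars give the range when 1 library is left out, for members. Every member is right of 0 without passing, whereas among the relatives Gbp8 (1.43) and Gvin1 (-0.91) passed in opposite directions.

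How reads were divided between relatives limits some of these values. The transcripts of Tgtp1 and Tgtp2 are 99.8% identical over 2811 aligned bases, so the split between these 2 genes is uncertain. Summed, they stood at 8.49, 8.08, 6.57 and 8.01 CPM with CPT-11, against 3.49, 2.75, 6.55 and 9.73 CPM with vehicle (log2 fold change 0.47, SE 0.35, edgeR adjusted p = 0.427). Gbp6 is 97.8% identical to Gbp10 over 2603 bases, and their sum had a log2 fold change of 0.66 (SE 0.51, edgeR adjusted p = 0.431). The Tgtp sum was whole (within 0.005) in 4 of 8 libraries and the sum of Gbp6 and Gbp10 in 2. Neither sum therefore holds every read that was divided. Igtp and Irgm2 share sequence for another reason. In GENCODE an Irgm2 transcript begins inside the first exon of Igtp, and the 2 genes have 162 exon bases in common. Their estimates were fractional in 6 libraries, yet the sum of both was whole in 8 of 8 (within 0.005), so reads were divided between the pair. Igtp and Irgm2 together stood at 32.6, 34.4, 49.1 and 24.1 CPM with CPT-11, against 15.6, 6.25, 28.1 and 27.2 CPM with vehicle. That sum overlapped between the groups as well, with CPT-11 replicate 4 below vehicle replicates 3 and 4 (log2 fold change 0.86, SE 0.41, adjusted p = 0.221).

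To set the genes beside each other, levels were divided by exon length. On the scale of CPM per kilobase of all annotated exons, Igtp was highest with 11 ± 2.58 in CPT-11 libraries and 5.3 ± 3.03 in vehicle libraries (SD, n = 4 each). Irgm1 followed at 5.94 ± 0.52 with CPT-11 and 5.27 ± 1.39 with vehicle, and Gbp2 at 4.31 ± 0.933 with CPT-11 and 1.86 ± 0.852 with vehicle. Next, in the order of the CPT-11 libraries, came Irgm2 (3.48 with CPT-11 and 2.32 with vehicle), Tgtp2 (1.73 and 1.25), Gbp6 (0.918 and 0.579), Tgtp1 (0.847 and 0.611), Gbp7 (0.616 and 0.381), Gbp3 (0.553 and 0.436) and Iigp1 (0.113 and 0.0827). Igtp lay above every Irgm1 value with CPT-11 and overlapped it with vehicle, while Irgm1 stayed above Gbp2, and Gbp3 above Iigp1, in both groups. The library ranges of Gbp2 and Irgm2, and of each pair of neighbours from Gbp6 down to Gbp3, overlapped in both groups. With vehicle the order differed within these overlaps, since Irgm2 averaged above Gbp2, Tgtp1 above Gbp6 and Gbp3 above Gbp7. Igtp made up 37.1% of the summed level per kilobase with CPT-11 and 27.7% with vehicle, and Irgm1 20.4% with CPT-11 and 31.5% with vehicle. The places of Igtp and Irgm1 depended on the length used, since with the length column of the table Irgm1 came first at 15.3 with CPT-11 and 13.6 with vehicle.

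Among the members, the balance of regulators to effectors, which in cells decides whether effector GTPases stay inactive, showed no difference beyond the spread. The log2 ratio of summed Irgm1, Irgm2 and Igtp to summed Iigp1, Tgtp1 and Tgtp2, each per kilobase, was 2.7, 2.93, 3.48 and 2.51 with CPT-11, against 3.19, 2.7, 2.89 and 2.39 with vehicle. The 2 groups overlapped over most of their range (2.91 ± 0.42 with CPT-11 and 2.79 ± 0.33 with vehicle, SD, n = 4 each). Transcripts of the regulators summed here thus exceeded those of the effectors summed here in all 8 libraries. The size of that excess holds only for this choice of effectors. Gm12250, which encodes Irgb10, was outside the sum. It averaged 9.45 CPM with CPT-11 and 6.55 CPM with vehicle over 1274 exon bases. Tgtp2, the highest of the summed effectors, averaged 5.07 and 3.67 CPM over 2938 exon bases. Per kilobase Gm12250 was thus above each summed effector on average, and counting it as an effector would lower the ratio. Ifi47 and other immunity-related GTPases outside the list were left out too. The ratio with any of these genes added was not computed.

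Among 17 relatives outside the list, which leave out Ifi47, 10 were tested, and 1 rose and 1 fell. Gbp8 rose to 4.27, 5.43, 4.31 and 4.3 CPM with CPT-11, against 0.959, 1.23, 1.88 and 2.69 CPM with vehicle, without overlap (log2 fold change 1.43, SE 0.32, edgeR adjusted p = 0.0306). Its annotated span (chr5:105014150-105139540) overlaps Gbp4 and covers Gbp9 on the same strand, which had log2 fold changes of -0.0031 (SE 0.38, adjusted p = 0.997) and -0.054 (SE 0.37, adjusted p = 0.938). The sign for Gbp4 turned in 11 of 21 alternatives. The call of Gbp8 was lost when CPT-11 replicate 1 or 4 or vehicle replicate 1, 2 or 3 was left out (adjusted p = 0.0652 to 0.0928). Gvin1, which belongs to the very large interferon-inducible GTPases, fell to 133, 88.1, 101 and 122 CPM with CPT-11, against 182, 230, 188 and 236 CPM with vehicle (log2 fold change -0.91, SE 0.16, adjusted p = 0.0139). Its groups were fully separate, although its estimates were fractional in 8 libraries, so reads are shared with other loci. Gm12250, which encodes Irgb10, a GTPase that acts with guanylate-binding proteins on bacteria and that GENCODE lists as a processed pseudogene, had 9.13, 8.57, 12.7 and 7.37 CPM with CPT-11, against 5.67, 2.8, 8.06 and 9.68 CPM with vehicle (log2 fold change 0.53, SE 0.34, adjusted p = 0.353). Gbp5, a guanylate-binding protein tied to inflammasome assembly in macrophages, was sparse (log2 fold change 0.21, SE 0.6, adjusted p = 0.848) and fell on the other side of 0 with CPT-11 replicate 3 (-0.11) or vehicle replicate 1 (-0.0057) left out. Gbp2b, the neighbour of Gbp2, was below the expression filter, with 21, 7, 13 and 12 counts with CPT-11, against 5, 4, 4 and 9 counts with vehicle.

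The interferons themselves were almost absent from these libraries. Ifng, the main inducer of both families, had 0, 1, 1 and 0 counts with CPT-11, against 0, 0, 1 and 3 counts with vehicle. Of the 10 ligand genes listed, Ifnb1, Ifna2, Ifna4, Ifnl2, Ifnl3, Il12b and Il27 were at 0 in every library. A count of 0 allows up to 3 counts of a library, and low RNA for a secreted factor in these cells does not measure its supply from elsewhere in the mucosa. Il18, a cytokine that promotes interferon gamma release, was the one ligand tested and had 25.4, 38.2, 13.1 and 28.7 CPM with CPT-11, against 10.6, 16.7, 12.4 and 9.55 CPM with vehicle (log2 fold change 1.1, SE 0.3, edgeR adjusted p = 0.0655). Il18 passed with DESeq2 (adjusted p = 0.00879), and in edgeR without CPT-11 replicate 3 (0.0133) or with a trend on gene length removed (0.0486).

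Of 9 receptor and kinase genes, Ifnar2, a chain of the type I interferon receptor, rose to 10.1, 16.0, 10.5 and 10.1 CPM with CPT-11, against 5.32, 6.87, 6.97 and 7.38 CPM with vehicle (log2 fold change 0.81, SE 0.2, edgeR adjusted p = 0.0426), and the other 8 did not pass. That call was lost without CPT-11 replicate 1 or 4 or any 1 of the vehicle libraries (adjusted p = 0.065 to 0.132) and with the replicate block (0.0568). None of 9 transcription factors passed in edgeR, DESeq2 called 3 and limma-voom 1, and 5 had an unadjusted edgeR p below 0.05, all with a fold change above 0. EdgeR called 2 without CPT-11 replicate 2 or vehicle replicate 4 and 3 without CPT-11 replicate 3. The ISGF3 subunits Stat2 (0.72, SE 0.2, edgeR adjusted p = 0.0628) and Irf9 (0.57, SE 0.2, adjusted p = 0.118) and the interferon amplifier Irf7 (1.34, SE 0.35, adjusted p = 0.0558) had log2 fold changes above 0. The fold changes of Irf1 (-0.34, adjusted p = 0.346), a direct inducer of guanylate-binding proteins, and Irf8 (-0.17, adjusted p = 0.437) were below 0. Of 6 inhibitors none passed in edgeR, with 1 at an unadjusted p below 0.05 1 called by DESeq2 and by limma-voom, and 1 by edgeR without vehicle replicate 4. Usp18, which blocks type I receptor signalling, had a log2 fold change of 1.42 (SE 0.38, adjusted p = 0.0609), Pias1 one of -0.27 (adjusted p = 0.28) and Socs1 one of 0.48 (adjusted p = 0.451).

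Among other interferon targets, some genes did pass the test. Of 24 type I genes 5 rose and none fell, beside 2.98% of all genes tested that rose, with a median log2 fold change of 1.1. That count of 5 depended on single libraries, and was 1 without vehicle replicate 1 or 3, 2 without vehicle replicate 2, 3 without CPT-11 replicate 1 or 4, and 16 without vehicle replicate 4. DESeq2 called 12 and limma-voom 7, and 16 had an unadjusted edgeR p below 0.05 in the same direction. The 5 were Ifit1 (log2 fold change 2.38, SE 0.37, adjusted p = 0.00818) and Ifit3 (2.23, SE 0.39, adjusted p = 0.0127), which bind foreign RNA or act beside the binder, Oasl1 (1.63, SE 0.32, adjusted p = 0.019), the antiviral enzyme Rsad2 (2.23, SE 0.55, adjusted p = 0.0455) and Rtp4 (1.7, SE 0.41, adjusted p = 0.0441). Calls were lost when 1 library was left out for Rsad2 and Rtp4 (any library but vehicle replicate 4, adjusted p up to 0.134 and 0.143), Oasl1 (vehicle replicate 1, 2 or 3, up to 0.0775) and Ifit3 (vehicle replicate 1 or 3, up to 0.0558). Of 15 interferon gamma targets, all had a fold change above 0 (median 0.34) and 1 passed, beside 2.98% of all genes tested that rose. DESeq2 called 3 and limma-voom 1, 3 had an unadjusted edgeR p below 0.05, and edgeR called 2 without CPT-11 replicate 3 or 4 or vehicle replicate 4. That gene was Nos2, inducible nitric oxide synthase, at 44.1, 33.3, 80.0 and 23.7 CPM with CPT-11, against 6.67, 4.41, 4.84 and 4.78 CPM with vehicle (log2 fold change 3.13, SE 0.36, adjusted p = 0.00179). The MHC class II and class I transactivators Ciita and Nlrc5 had log2 fold changes of 0.14 (adjusted p = 0.853) and 0.021 (adjusted p = 0.981), whose sign turned in 3 and 5 of the 21 alternatives. Nos2 and Ifit1 kept their calls without any 1 library.

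Of the 18 autophagy and ubiquitin genes that help to load these GTPases onto vacuoles, none passed in edgeR, with 4 higher at an unadjusted p below 0.05, 1 called by DESeq2 and 0 by limma-voom. The smallest p-values belonged to the autophagy receptor Sqstm1 (log2 fold change 0.44, SE 0.14, adjusted p = 0.103) and the ATG8 homologue Gabarapl2 (0.42, SE 0.15, adjusted p = 0.14). Downstream, 2 of the 8 tested genes of caspase activation and DNA or lipopolysaccharide sensing rose (1 without vehicle replicate 1 or 3). The share over all genes tested was 2.98%. DESeq2 and limma-voom each called 3 higher, and 4 were higher at an unadjusted edgeR p below 0.05. Casp4, which encodes mouse caspase-11, rose to 24.4, 37.3, 24.6 and 19.6 CPM with CPT-11, against 9.29, 7.49, 6.18 and 10.0 CPM with vehicle (log2 fold change 1.68, SE 0.23, adjusted p = 0.00449). Its lowest CPT-11 library was above its highest vehicle library. Gsdmd, the pore-forming substrate of that caspase, rose to 150, 231, 179 and 149 CPM with CPT-11, against 76.5, 117, 87.5 and 97.6 CPM with vehicle (log2 fold change 0.91, SE 0.18, adjusted p = 0.0229), which did not pass (adjusted p = 0.0628 to 0.0927) when vehicle replicate 1, 3 or 4 was left out.

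The genes whose profile over the 8 libraries lay closest to the members' mean profile were ranked by the mean absolute difference of centred log2(CPM + 0.5). The 8 closest outside the list were Gimap8 (0.102), Gm12250 (0.137), Evi2b (0.138), Ipcef1 (0.145), Oas1c (0.16), H2-Q6 (0.162), Ifi47 (0.164) and Klhl6 (0.181), beside a median of 0.502 over all genes tested. None of the 8 passed the test. The members themselves lay at 0.136 (Gbp7) to 0.375 (Gbp3). The members' mean profile stood at 0.4, 0.13, 0.59 and 0.15 log2 units with CPT-11, against -0.57, -1.08, -0.045 and 0.42 with vehicle. Vehicle replicate 4 thus ranked with the CPT-11 libraries and vehicle replicate 2 lowest. Gm12250 and Ifi47 are further immunity-related GTPases, and Gimap8 belongs to another GTPase family, known from lymphocytes.

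**Figure D4:**
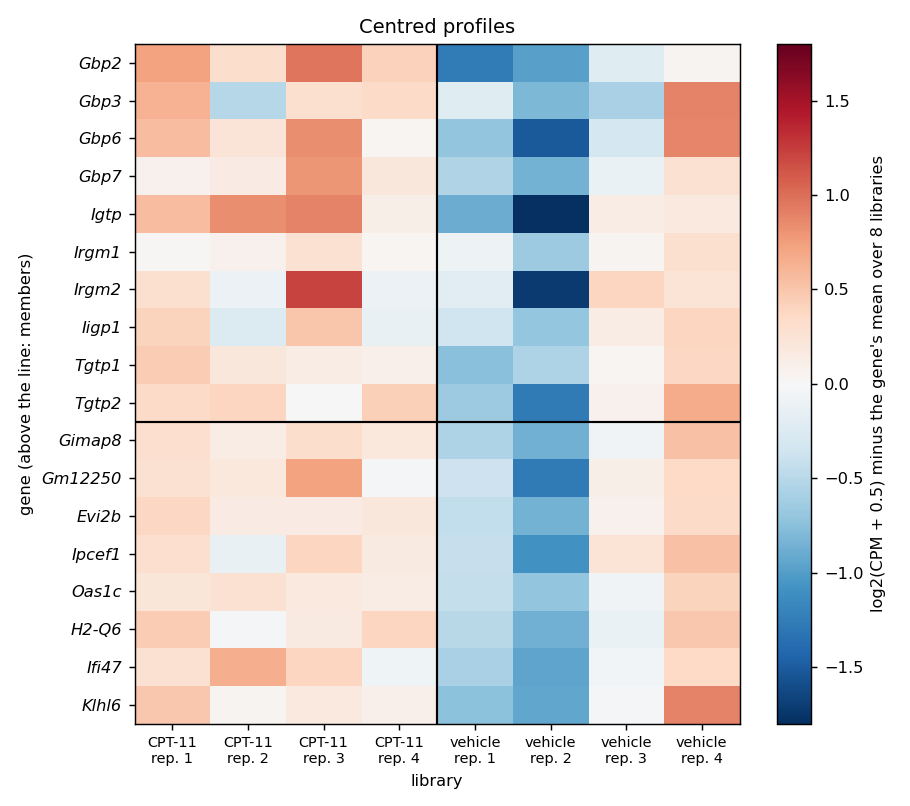
Heat map of log2(CPM + 0.5) minus each gene's mean over 8 libraries, for the 10 members (above the line) and the 8 genes closest to their mean profile (below it), with CPT-11 libraries left of vehicle libraries. Vehicle replicate 2 is blue in all rows, and vehicle replicate 4 is as red as many CPT-11 libraries.

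Markers of other cells moved between libraries too. The summed level of 14 T and NK cell markers was 492, 861, 413 and 565 CPM with CPT-11, against 304, 194, 564 and 672 CPM with vehicle, with 13 tested, none passing in edgeR (2 at an unadjusted p below 0.05, 0 in DESeq2 and limma-voom) and none at 0 in all libraries. Within vehicle their order (replicates 2, 1, 3, 4 from low to high) was that of the summed GTPases, which stood at 97.4, 93.6, 124 and 83.7 CPM with CPT-11, against 56.9, 35.2, 80.5 and 98.2 CPM with vehicle. Within CPT-11 the orders differed, since replicate 2 was highest for the markers and replicate 3 for the GTPases. Of 13 macrophage and dendritic cell markers 2 of 9 tested rose (Cd14 and C1qc), beside 2.98% of all genes tested. These markers summed to 56.2 to 78.6 CPM with CPT-11 and 55.5 to 77.0 CPM with vehicle. Of the 9, 6 had a fold change above 0. At an unadjusted edgeR p below 0.05, 5 were higher and 1 lower, and DESeq2 called 3 higher and 1 lower. B and plasma cell markers rose in 4 of 6 tested, beside 2.98% of all genes tested. They summed to 19.7 to 38.1 CPM with CPT-11 and 6.8 to 18.5 CPM with vehicle. Neutrophil markers were scarce, at 0.445 to 0.795 CPM with CPT-11 and 0.0948 to 0.376 CPM with vehicle, with Ly6g at 0 throughout. Endothelial and stromal markers summed to 18.2 to 106 CPM with CPT-11 and 9.33 to 43.1 CPM with vehicle, and none of 5 tested passed in edgeR (2 at an unadjusted p below 0.05, 0 in DESeq2 and limma-voom). Epithelial markers dominated, with 30300 to 51100 CPM with CPT-11 and 42200 to 51100 CPM with vehicle. Of the 13, Lgr5, Olfm4 and Mki67 fell, beside 2.52% of all genes tested, while 7 had a fold change above 0. At an unadjusted edgeR p below 0.05, 3 were higher and 4 lower, and DESeq2 called 1 higher and 4 lower. The enterocyte list summed to 21500, 57200, 23700 and 17000 CPM with CPT-11, against 9990 to 16700 CPM with vehicle. Of its 10 genes, all with a fold change above 0, 1 passed in edgeR (Fabp2), beside 2.98% of all genes tested that rose. DESeq2 called 4 higher and limma-voom 1, and 4 were higher at an unadjusted edgeR p below 0.05. Genes that respond to cell dissociation summed to 304 to 411 CPM with CPT-11 and 196 to 280 CPM with vehicle. Of these 10 genes, 4 rose (Junb, Egr1, Hspa1a and Hspa1b), beside 2.98% of all genes tested. The call was lost without at least 1 single library for Junb, Egr1 and Hspa1a (edgeR adjusted p up to 0.0928, 0.153 and 0.0749). The part of these cells and of handling in the GTPase levels was not tested.

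**Figure D5:**
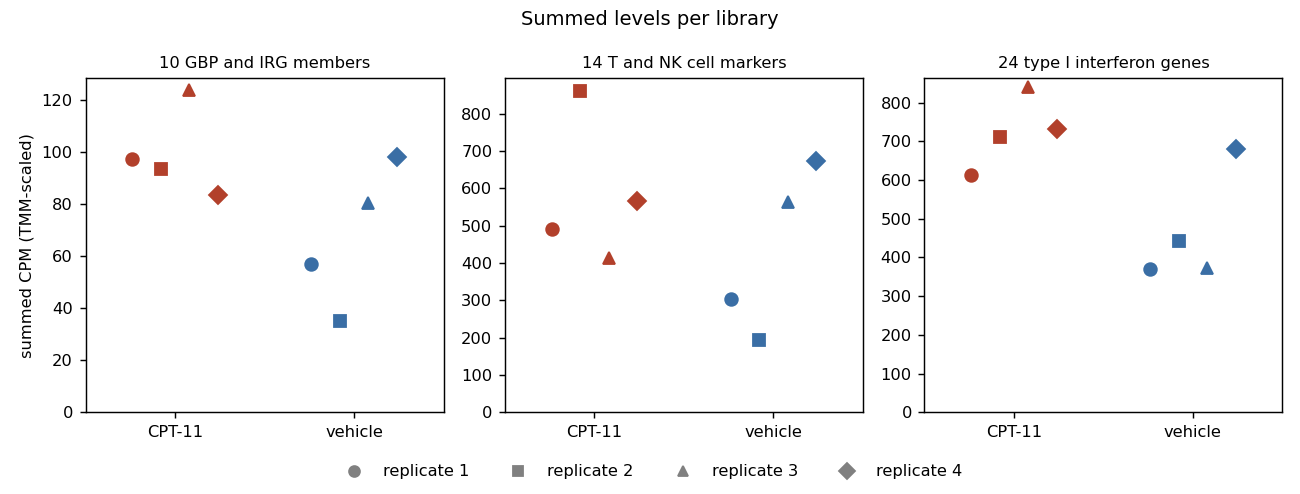
Summed TMM-scaled CPM in each library (vertical axes from 0) for the 10 members, 14 T and NK cell markers and 24 type I interferon genes, with CPT-11 (red) left of vehicle (blue) and marker shapes for replicate numbers. Vehicle replicate 4 is the highest vehicle library in all 3 panels, at 98.2, 672 and 681 CPM, and vehicle replicate 2 is lowest for the members and the T and NK markers.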

How the data were processed

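Total RNA from unsorted ileal crypt cells was sequenced with standard Illumina libraries, per the labels' protocols. The authors deposited 1 table of estimated counts, a value per gene and library (10.25% to 11.11% of the values in a library are not whole), not normalized by the authors as far as the values show. Bowtie2 2.4.1 and GRCm38.p6 are named in the submitters' processing notes, while the sources used here do not name the tool behind the estimates or say whether it used strand. Such estimates divide reads between similar genes, so near-identical and overlapping members were also summed. The 543 rows with no gene name (0.325% to 0.662% of a library) were left out.

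The estimates were rounded and fitted in edgeR 4.0.16 (R 4.3.3; TMM scaling, filterByExpr with a minimum count of 10 and total of 15, robust quasi-likelihood F test, two-sided), with Benjamini-Hochberg adjustment over 14011 genes. The threshold was 0.05. CPM are per TMM-scaled library size, and per kilobase they use the union of GENCODE M21 exons. No 2 replicates agreed within sampling noise. The script was tested on simulated data. Alternatives were DESeq2 1.42.0, limma-voom 3.58.1, other scalings and filters, a replicate block, each library left out, 2 libraries of a group left out, summed relatives, unnamed rows kept and a length trend removed. The members and gene lists were chosen with earlier results of these data known. From each list other than markers, the genes named are those that passed or, where none did, the 2 with the smallest p. Ifng, Irf1, Irf9, Irf8, Socs1, Ciita, Nlrc5, Gbp4, Gbp5, Gbp2b and Gm12250 were always named, with the 8 genes closest to the members' mean profile. Gbp9, Gbp10, Gm12185 and the markers that passed were named after their values or positions were seen. Some genes that these rules cover are not reported here.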

Additional observations from a re-analysis of the deposited data

Results flagged for a closer look

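A library was listed here when its distance from the nearest of the others in its group of 4 was, as a share of the group's range, above Dixon's 95% critical value, and chance lists about 1 in 20 groups. Of 84 groups of 4 checked, over 42 genes, 10 were listed. Among members, Gbp7 stood at 4.94 CPM in CPT-11 replicate 3 against 2.82 to 3.11 CPM in the other CPT-11 libraries, and Irgm1 at 39.0 CPM in the same library against 32.6 to 33.7 CPM. That library also held Ifit3 at 16.4 CPM against 7.34 to 8.67 CPM. CPT-11 replicate 2 held Gbp8 at 5.43 CPM (others 4.27 to 4.31), Ifnar2 at 16.0 CPM (others 10.1 to 10.5) and Socs1 at 6.85 CPM (others 2.34 to 2.92). Vehicle replicate 4 held Ifit1 at 10.2 CPM (other vehicle libraries 4.05 to 4.8), Ifit3 at 4.01 CPM (others 1.42 to 1.61) and Rtp4 at 11.7 CPM (others 3.4 to 3.84). Vehicle replicate 1 held Gabarapl2 at 53.2 CPM (others 59.0 to 60.1).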

How the results depend on the processing

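The members' direction held in all 21 alternatives, with a median log2 fold change between 0.3 and 0.95, and Gbp2 was the one member called in any. The number of members called was 1, not 0, with no filter, DESeq2, limma-voom or the replicate block, and 0 to 1 with 1 library left out. The number of genes called, 770 with all 8 libraries, was 1884 with DESeq2, 236 to 1522 with 1 library left out, 1212 without CPT-11 replicates 2 and 4, 1212 with the length trend removed and 95 without vehicle replicates 2 and 4. For the pathway genes, 11 calls became 27 with DESeq2, 4 to 25 with 1 library left out, 22 with the length trend removed and 6 without vehicle replicates 2 and 4. The mean log2 balance of the summed regulators over the summed effectors among the members, 2.85, was 3.36 with the table's own lengths. The alternatives without vehicle replicates 2 and 4, with Igtp and Irgm2 summed and with the table's lengths were chosen after seeing the data.

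Signs turned in 5 named genes, none of them members and none called. Gbp4 (-0.0031; -0.21 to 0.4 with 1 library left out) was 0.0029 with RLE scaling and with the 1 CPM filter, 0.0028 with DESeq2, 0.1 with limma-voom, 0.078 with the replicate block, 0.18 without CPT-11 replicate 2, 0.002 or 0.4 when vehicle replicate 3 or 4 was left out, 0.12 without CPT-11 replicates 2 and 4, 0.12 with the length trend removed and 0.2 without vehicle replicates 2 and 4. Gbp5 (0.21) was -0.11 without CPT-11 replicate 3 and -0.0057 with vehicle replicate 1 left out, within a leave-one-out range of -0.11 to 0.79. Socs1 (0.48; -0.0047 to 0.65 with 1 library left out) was -0.0047 without CPT-11 replicate 2 and -0.11 without CPT-11 replicates 2 and 4. Ciita (0.14; -0.15 to 0.5) was -0.021 without CPT-11 replicate 1, -0.15 without vehicle replicate 2 and -0.25 without vehicle replicates 2 and 4. Nlrc5 (0.021; -0.24 to 0.56) was -0.00072 with no filter, -0.11 and -0.08 without CPT-11 replicate 1 or 3, and -0.13 and -0.24 without vehicle replicate 1 or 2. The cause was not tested.

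Same-numbered libraries deviated together with a correlation of -0.119 to 0.234, not above 0.1 in every pair, so the numbers were not taken to pair the libraries, and the replicate block gave 686 genes. For Iigp1, with 3 to 23 counts a library, counting error limits the value.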
